A study of Mus musculus with 8 samples.

Results

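Ubiquitin conjugating enzymes, cullins and F-box proteins carry ubiquitin and its relatives from the activating enzyme to a substrate, and their transcripts were compared between Eif6+/- and wild-type (WT) mouse muscle. Members were the genes whose symbol begins with Ube2, Fbxo, Fbxl or Fbxw followed by a digit or letter, or with Cul followed by a digit, named through the RefSeq accession of each probe. Fbxo32, Fbxo30 and pseudogenes were not used here. This gave 116 genes with 173 probes among the 20660 genes with a named probe. They were 35 genes with a Ube2 symbol, 8 cullins, and 18 Fbxl, 21 Fbxw and 34 Fbxo genes of the F-box class. The Ube2 genes are called conjugating (E2) enzymes here by symbol, though some, such as Ube2v1 and Ube2v2, are inactive. A further 5 genes of these families had no probe matched by accession (Fbxw23, Fbxw25, Fbxw28, Ube2d2b and Ube2dnl1). Of the 116 members, 92 were bright enough to be tested in gastrocnemius and 90 in tibialis anterior (TA), the same 90 in both, and 24 were tested in neither muscle. The 24 included Fbxo5, an inhibitor of the anaphase-promoting complex, and Fbxl21, a partner of the cryptochromes, and 17 of them were not well above background on any array.

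Each of 8 Agilent SurePrint G3 arrays held RNA from the muscle of 1 Eif6+/- mouse and 1 WT mouse, paired at random, with 4 pairs for gastrocnemius and 4 for TA. The mice were male C57BL6 littermates 8 to 16 weeks old, either heterozygous for Eif6 or WT, and whether the same mice gave both muscles was not stated in the sources used here. In the labels, Cy5 marks Eif6+/- and Cy3 marks WT throughout, though Cy3 is the sole dye that the methods name. With no array labelled the other way round, dye and genotype cannot be told apart within a muscle. A dye effect that is alike in both muscles cancels only in the difference between them. The slide held gastrocnemius and TA in separate rows, and an effect of the row cannot be told apart from that of the muscle. Values are log2 ratios of Eif6+/- over WT, with a positive value meaning more signal in Eif6+/-, and a member was called where limma's adjusted p over all probes kept in that muscle was under 0.1. Eif6 itself, which checks the labels, had log2 ratios of -0.97, -1.15, -0.89 and -1.06 in gastrocnemius and -1.22, -1.03, -0.95 and -0.80 in TA. It was lower in Eif6+/- on all 8 arrays, by a mean log2 ratio of -1.02 ± 0.11 (SD, n = 4, limma adjusted p = 0.0241) in gastrocnemius and -1.0 ± 0.17 (n = 4, adjusted p = 0.0109) in TA. The whole muscle was measured, so fewer cells of a type and less RNA per cell cannot be told apart in any of these values.

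Ubiquitin passes from an E1 activating enzyme to an E2 and then, with the help of an E3 ligase, to the substrate. Cullins are the scaffolds of the largest E3 class: the cullin binds a RING protein that recruits the E2 at one end and an adaptor with a substrate receptor at the other, and F-box proteins are the receptors of the Cul1 complex. A cullin works only after the ubiquitin-like protein NEDD8 has been joined to it by the E2 enzymes Ube2m and Ube2f, and in skeletal muscle F-box ligases are best known for protein breakdown during wasting.

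In gastrocnemius 13 of 92 tested members were called, beside 15.4% of the 12615 genes tested. Of these, 10 were higher in Eif6+/- (beside 9.86% of all genes) and 3 lower (beside 5.53%). In TA 21 of 90 tested members were called, beside 16.3% of the 12387 genes tested, with 15 higher (beside 8.98%) and 6 lower (beside 7.28%). The median log2 ratio of the tested members was 0.03 in gastrocnemius and 0.04 in TA, against 0.02 over all genes tested in either muscle. The calls were spread over every class: in gastrocnemius 5 of 31 E2 enzymes, 1 of 8 cullins, 3 of 16 Fbxl, 2 of 11 Fbxw and 2 of 26 Fbxo genes, and in TA 8 of 31, 1 of 8, 2 of 16, 4 of 10 and 6 of 25. The calls depended on the number of pairs. Without pair 3 or without pair 4, limma called 0 members and 0 genes in gastrocnemius, where 17 and 13 members had an unadjusted p under 0.05. The count was 10 without pair 1 (beside 1768 genes) and 8 without pair 2 (beside 1339 genes). In TA limma called 0 members and 68 genes without pair 1 (25 members had an unadjusted p under 0.05). It called 4 members without pair 2, 10 without pair 3 and 13 without pair 4, beside 543, 1187 and 2036 genes. Hence the gastrocnemius call of every member ended without pair 3 and without pair 4, and the TA call of every member ended without pair 1. SAM, the test named in the methods, called 21 members in gastrocnemius and 25 in TA at the same false discovery rate, with all 13 and all 21 of limma's members among them. Over all genes SAM called 3198 of 12615 in gastrocnemius and 2613 of 12387 in TA. Under Agilent's processed signals 3 members were called in gastrocnemius, 1 of them higher, and 7 in TA, 4 of them higher. Over all genes that setting called 1208 in gastrocnemius and 850 in TA. The split in TA was 15 higher and 6 lower with the normalization used here and 19 and 3 with loess within arrays alone. Over all genes these called 2014 and 2113 in TA.

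**Figure D1:**
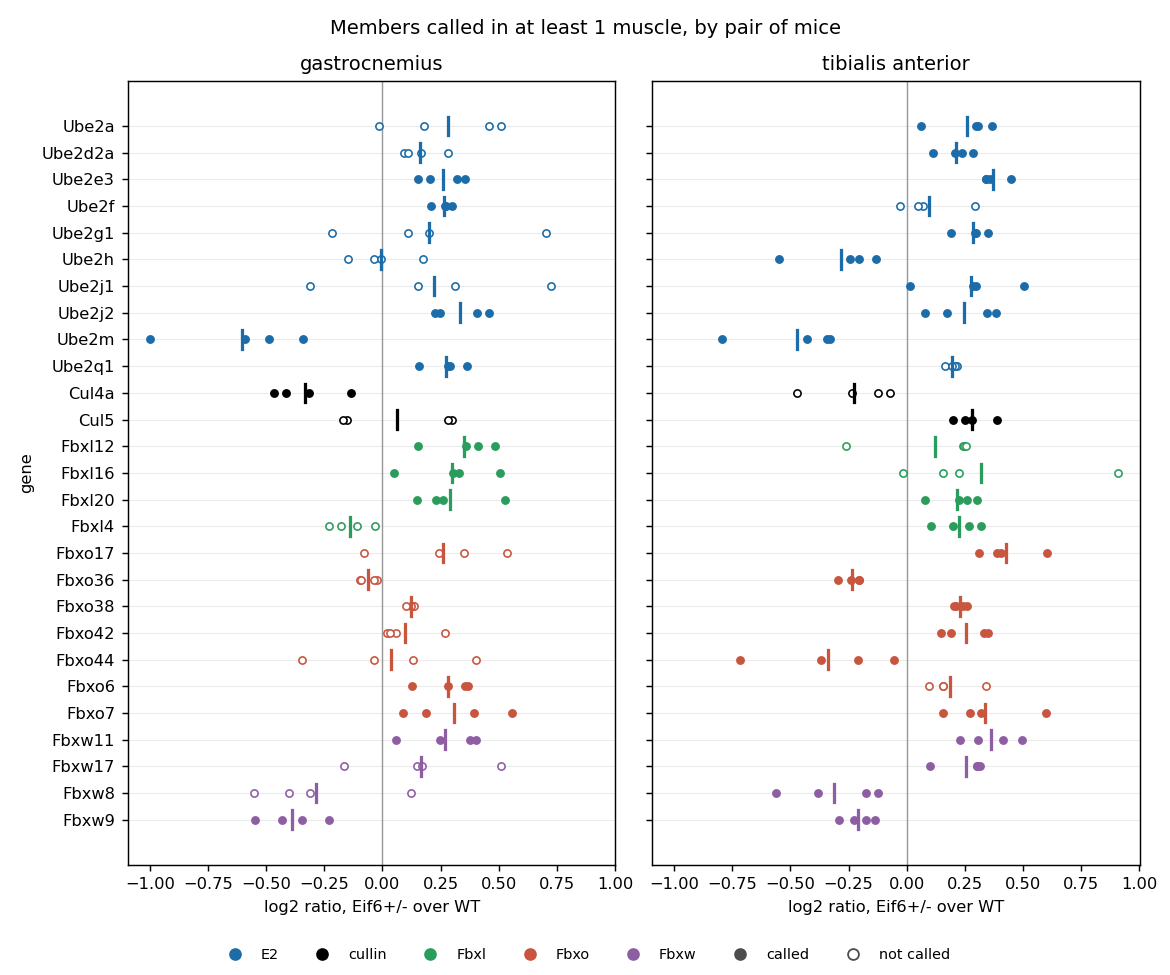
Log2 ratio of Eif6+/- over WT (horizontal axis) for every member called in at least 1 muscle, with a circle for each of the 4 pairs, a bar for their mean, filled circles where the member was called and colours for the classes. Ube2m has the lowest mean in both panels, and its 8 circles all lie below 0.

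A total of 7 members were called in both muscles, all in the same direction, beside 6.35% of the 12209 genes tested in both. They were 53.8% of the members called in gastrocnemius and 33.3% of those called in TA, against 40.4% and 38.9% over all genes. Ube2m and Fbxw9 were lower in Eif6+/- in both muscles, and Ube2e3, Ube2j2, Fbxl20, Fbxo7 and Fbxw11 were higher, each by its brightest probe. For Ube2j2 another probe was called as lower in TA (-0.26, limma adjusted p = 0.0899).

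Ube2m, the E2 that hands NEDD8 to most cullins, had the lowest mean log2 ratio of all members in either muscle. Its values were -0.34, -1.0, -0.49 and -0.59 in the 4 gastrocnemius pairs and -0.79, -0.43, -0.34 and -0.33 in the 4 TA pairs. Every pair lay below 0, and pair 2 in gastrocnemius and pair 1 in TA lay farthest down. The means were -0.60 ± 0.28 (SD, n = 4, limma adjusted p = 0.0382) and -0.47 ± 0.22 (n = 4, adjusted p = 0.0315). Under 10 other ways of processing, Ube2m stayed called in all 10 in both muscles, with means from -0.64 to -0.57 in gastrocnemius and from -0.56 to -0.47 in TA. The call ended in gastrocnemius without pair 3 (adjusted p = 0.132) or pair 4 (0.163), in TA without pair 1 (0.138), and in gastrocnemius with an unpaired test on the separate channels (0.127), while SAM kept it in both muscles at a false discovery rate of 0.05.

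Ube2f, the E2 that hands NEDD8 to Cul5, had log2 ratios of 0.27, 0.30, 0.27 and 0.21 in gastrocnemius and 0.07, 0.29, -0.03 and 0.05 in TA. The 4 gastrocnemius pairs lay close together above 0, while in TA only pair 2 reached their range. It rose in gastrocnemius, by 0.26 ± 0.038 (SD, n = 4, limma adjusted p = 0.0677), and had a mean of 0.10 ± 0.14 in TA (adjusted p = 0.449). Its difference between the muscles was 0.17 with a standard error of 0.0958 (limma adjusted p = 0.677). Leaving out any of the 4 gastrocnemius pairs ended the call (adjusted p from 0.121 to 0.200), and so did Agilent's processed signals (0.123), normexp without an offset (0.135) and the mean of all probes (0.237). A dimmer probe of Ube2f had a mean of 0.02 in gastrocnemius and -0.10 in TA, neither called. The NEDD8 enzymes thus lay on opposite sides of 0 in gastrocnemius, each by its brightest probe.

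Fbxw9, an F-box protein with WD40 repeats, had log2 ratios of -0.34, -0.23, -0.55 and -0.43 in gastrocnemius and -0.14, -0.23, -0.29 and -0.17 in TA. All 8 pairs lay below 0, and pair 3 was lowest in each muscle. The means were -0.39 ± 0.13 (SD, n = 4, limma adjusted p = 0.0447) and -0.21 ± 0.067 (n = 4, adjusted p = 0.0972). Its mean lay from -0.89 to -0.39 in gastrocnemius and from -0.45 to -0.19 in TA over 10 other ways of processing, lowest with Agilent's processed signals in both. Its call was kept in all 10 in gastrocnemius and in 9 in TA, where it ended with loess alone (adjusted p = 0.110). It also ended in TA without any of the pairs (adjusted p from 0.134 to 0.235) and in gastrocnemius without pair 3 (0.161) or pair 4 (0.174).

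Ube2e3, a nuclear-imported E2 with an extended amino terminus, had log2 ratios of 0.36, 0.15, 0.21 and 0.32 in gastrocnemius and 0.45, 0.36, 0.34 and 0.34 in TA. All 8 pairs lay above 0, and in TA pair 1 stood above the other 3. It rose by 0.26 ± 0.095 (SD, n = 4, limma adjusted p = 0.0829) in gastrocnemius and by 0.37 ± 0.052 (n = 4, adjusted p = 0.0254) in TA. A dimmer probe of Ube2e3 gave 0.03 and 0.06, neither called, and its gastrocnemius call ended without any of the pairs (adjusted p from 0.109 to 0.262) and its TA call without pair 1 (0.146). Of 10 other ways of processing, 7 kept the call in gastrocnemius and 10 in TA.

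Fbxw11, a receptor that recognises phosphorylated substrates such as inhibitors of NF-kappaB and beta-catenin, had log2 ratios of 0.06, 0.38, 0.25 and 0.40 in gastrocnemius and 0.49, 0.31, 0.23 and 0.42 in TA. All pairs lay above 0, with pair 1 lowest in gastrocnemius and highest in TA. It rose by 0.27 ± 0.16 (SD, n = 4, limma adjusted p = 0.0997) and by 0.36 ± 0.12 (n = 4, adjusted p = 0.0346). Its other probe was higher in both muscles too, at 0.22 in gastrocnemius, where it was not called, and at 0.31 in TA, where it was (adjusted p = 0.0413). The gastrocnemius call sat at the threshold and was kept in 4 of 10 other ways of processing and in 1 of 4 fits with a pair left out. The TA call was kept in 9 of 10 and in 3 of 4, and was lost without pair 1 (adjusted p = 0.179).

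Fbxo7, which binds a regulator of the proteasome and takes part in the clearance of damaged mitochondria, had log2 ratios of 0.19, 0.40, 0.56 and 0.09 in gastrocnemius and 0.60, 0.32, 0.16 and 0.27 in TA. All lay above 0, over a wide range within each muscle. It rose by 0.31 ± 0.21 (SD, n = 4, limma adjusted p = 0.0997) and by 0.34 ± 0.19 (n = 4, adjusted p = 0.0554). Fbxl20, known from the turnover of a synaptic protein in neurons, had log2 ratios of 0.52, 0.23, 0.15 and 0.26 in gastrocnemius and 0.26, 0.08, 0.22 and 0.30 in TA. Pair 1 in gastrocnemius stood highest, and all pairs lay above 0. It rose by 0.29 ± 0.16 (limma adjusted p = 0.0869) and by 0.22 ± 0.096 (adjusted p = 0.0983). Leaving out any of the pairs ended the calls of Fbxl20 in both muscles (adjusted p from 0.134 to 0.296) and that of Fbxo7 in gastrocnemius (0.115 to 0.301), and the call of Fbxo7 in TA was kept in 2 of 4 such fits (highest adjusted p = 0.222). Over 10 other ways of processing, the call of Fbxo7 was kept in 4 in gastrocnemius and 8 in TA, and in gastrocnemius it was lost with the unpaired test on the separate channels (0.197) and kept with SAM at a false discovery rate of 0.1 though not 0.05. That of Fbxl20 was kept in 7 and in 4. The other probe of Fbxl20 gave 0.20 in gastrocnemius and 0.03 in TA, neither called, and the mean of all its probes gave 0.12 in TA (adjusted p = 0.286).

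The promoters of the members called in both muscles are shown. RefSeq (assembly GRCm38.p6) gave a promoter for 6 of the 7, and Ube2e3 had no entry. Each sequence is the 250 bases before the most upstream annotated start, 5′ to 3′ on the strand of the gene. It lies at chr7:13038276-13038525 (minus strand) for Ube2m, chr8:85059869-85060118 (plus) for Fbxw9, chr4:155943563-155943812 (plus) for Ube2j2, chr11:32642305-32642554 (plus) for Fbxw11, chr11:98149617-98149866 (minus) for Fbxl20 and chr10:86021679-86021928 (plus) for Fbxo7. Capitals mark matches, on either strand, to the CCAAT box, the TATA box (letters TATAAA), the GC box (letters GGGCGG), the ETS motif (letters CCGGAAG) and both E-boxes searched, spelled CACGTG and, in the other form, CAGCTG, and no matches overlapped.
Ube2m: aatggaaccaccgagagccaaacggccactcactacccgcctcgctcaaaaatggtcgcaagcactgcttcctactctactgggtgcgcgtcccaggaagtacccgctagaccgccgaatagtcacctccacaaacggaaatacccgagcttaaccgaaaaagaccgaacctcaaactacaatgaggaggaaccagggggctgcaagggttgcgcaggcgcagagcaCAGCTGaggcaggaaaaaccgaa
Fbxw9: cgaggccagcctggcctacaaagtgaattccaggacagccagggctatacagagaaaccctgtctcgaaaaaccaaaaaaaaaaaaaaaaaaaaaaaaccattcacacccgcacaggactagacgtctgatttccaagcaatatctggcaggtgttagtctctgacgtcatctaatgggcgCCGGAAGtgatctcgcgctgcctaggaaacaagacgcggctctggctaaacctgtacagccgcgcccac
Ube2j2: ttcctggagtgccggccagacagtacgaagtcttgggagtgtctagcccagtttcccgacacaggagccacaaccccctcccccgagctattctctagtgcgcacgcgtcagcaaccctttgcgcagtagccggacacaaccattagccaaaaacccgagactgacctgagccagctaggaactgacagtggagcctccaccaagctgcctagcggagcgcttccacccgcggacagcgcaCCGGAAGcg
Fbxw11: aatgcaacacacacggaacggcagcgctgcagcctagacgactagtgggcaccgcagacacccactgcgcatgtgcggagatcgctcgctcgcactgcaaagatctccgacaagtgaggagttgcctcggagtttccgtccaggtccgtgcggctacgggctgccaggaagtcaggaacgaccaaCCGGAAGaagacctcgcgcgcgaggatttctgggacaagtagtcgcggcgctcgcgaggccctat
Fbxl20: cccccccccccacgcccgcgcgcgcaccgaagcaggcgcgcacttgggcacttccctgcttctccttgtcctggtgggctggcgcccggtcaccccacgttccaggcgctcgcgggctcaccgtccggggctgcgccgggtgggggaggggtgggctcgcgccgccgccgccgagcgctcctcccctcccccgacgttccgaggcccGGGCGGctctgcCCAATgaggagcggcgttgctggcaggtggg
Fbxo7: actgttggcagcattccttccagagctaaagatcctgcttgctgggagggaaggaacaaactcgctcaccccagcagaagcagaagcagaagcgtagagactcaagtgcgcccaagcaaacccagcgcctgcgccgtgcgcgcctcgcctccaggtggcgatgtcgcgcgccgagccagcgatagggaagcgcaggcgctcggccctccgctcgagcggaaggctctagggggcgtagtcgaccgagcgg
CCGGAAG stood in the promoters of Fbxw9, Ube2j2 and Fbxw11, against 7.07% of the promoters of 27025 genes and 13 of the 90 members with a sequence. CAGCTG stood in that of Ube2m (12.7% of all promoters), CCAAT (34.5%) and GGGCGG (33.0%) stood in that of Fbxl20, and Fbxo7 held no match. TATAAA (13.0% of all promoters) and CACGTG (6.04%) stood in none of the 6. Of the 90 members with a sequence, 24.4% held CAGCTG, 23.3% CCAAT, 58.9% GGGCGG, 4.44% TATAAA and 5.56% CACGTG. A match is a run of letters, and no binding was measured.

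Among the cullins, Cul4a and Cul5 were called, each in a single muscle. Cul4a, the scaffold of the ligases that use Ddb1 as adaptor, had log2 ratios of -0.14, -0.41, -0.47 and -0.32 in gastrocnemius and -0.47, -0.12, -0.23 and -0.07 in TA. All 8 pairs lay below 0 and the muscles overlapped. It fell in gastrocnemius, with a mean of -0.33 ± 0.15 (SD, n = 4, limma adjusted p = 0.0618), and had a mean of -0.23 ± 0.18 in TA (adjusted p = 0.129). Its close relative Cul4b had means of 0.01 and 0.14, neither called. Cul5, the scaffold that works with elongins and SOCS-box receptors, had log2 ratios of -0.15, 0.30, 0.28 and -0.17 in gastrocnemius and 0.20, 0.28, 0.25 and 0.39 in TA. In gastrocnemius pairs 2 and 3 lay in the range of TA and pairs 1 and 4 below 0. Cul5 rose in TA, by 0.28 ± 0.080 (SD, n = 4, limma adjusted p = 0.0518), and had a mean of 0.06 ± 0.26 in gastrocnemius (adjusted p = 0.742). The call of Cul5 ended without any of the TA pairs (adjusted p from 0.101 to 0.181), and that of Cul4a without pair 2, 3 or 4 (0.129, 0.208 and 0.198). Agilent's processed signals ended both (0.138 for Cul5 and 0.142 for Cul4a), as did the unpaired test on the separate channels for Cul5 (0.298) and normexp without an offset for Cul4a (0.103). Cul1, the scaffold of the F-box complexes, had means of -0.13 and -0.09, and Cul2, Cul3, Cul7 and Cul9 had means between -0.08 and 0.11, none called.

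**Figure D2:**
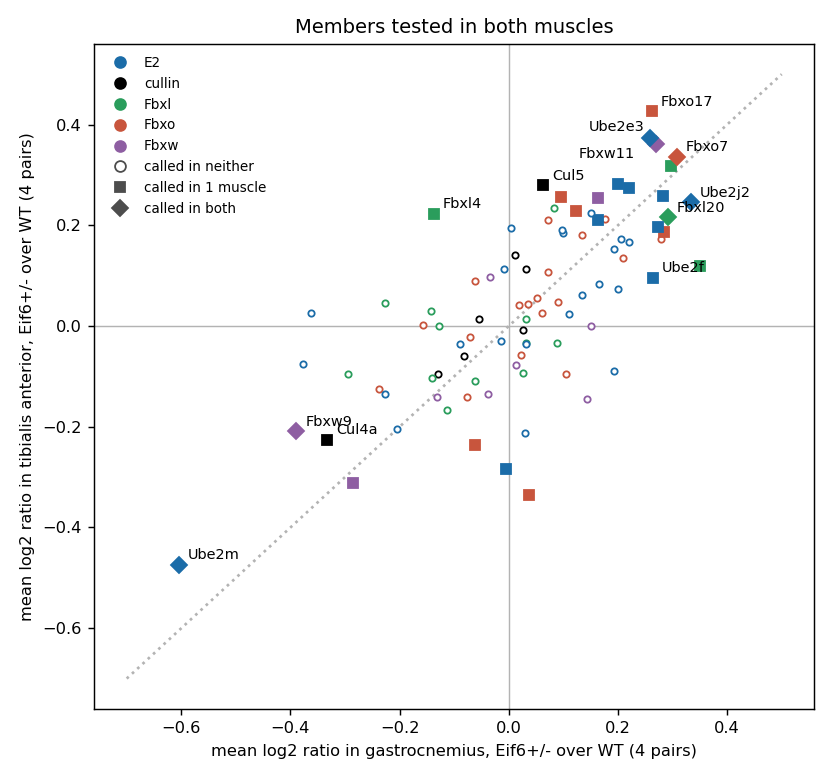
Mean log2 ratio of Eif6+/- over WT in gastrocnemius (horizontal axis) and TA (vertical axis) for the 90 members tested in both muscles, each mean over 4 pairs, with colours for the classes, squares for members called in 1 muscle, diamonds for the 7 called in both and a dotted line where the means are equal. Ube2m and Fbxw9 lie at the lower left, and Ube2e3, Fbxw11, Fbxo7, Ube2j2 and Fbxl20 at the upper right.

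Of the E2 enzymes anchored in or acting at the endoplasmic reticulum, where misfolded proteins are marked for breakdown, Ube2j2 was called in both muscles and Ube2j1, named after its values were seen, in TA. Ube2j2 had log2 ratios of 0.41, 0.25, 0.46 and 0.23 in gastrocnemius and 0.34, 0.17, 0.08 and 0.39 in TA. All pairs of this probe lay above 0, with means of 0.33 ± 0.11 (SD, n = 4, limma adjusted p = 0.0533) and 0.25 ± 0.14 (n = 4, adjusted p = 0.0907). Its 2 dimmer probes differed from it: one gave -0.22 in gastrocnemius and -0.26 in TA, the latter called as lower (limma adjusted p = 0.0899), and the other gave 0.04 and 0.02, so no direction can be given for the gene. The call of the brightest probe was kept without pair 2 alone in gastrocnemius (highest adjusted p = 0.187) and in 0 of 4 such fits in TA (from 0.101 to 0.304), and in 7 and 5 of 10 other ways of processing. Ube2j1 was in the same position, with 0.27 in TA by its brightest probe (adjusted p = 0.0940) and -0.18 and -0.16 by its others, which were not called. Ube2g1, which lengthens ubiquitin chains on substrates of cullin ligases, had log2 ratios of 0.11, 0.20, 0.70 and -0.22 in gastrocnemius and 0.29, 0.35, 0.19 and 0.30 in TA. The TA pairs lay close together and the gastrocnemius pairs were spread on both sides of 0. It rose in TA by 0.28 ± 0.067 (SD, n = 4, limma adjusted p = 0.0482) and had a mean of 0.20 ± 0.38 in gastrocnemius (adjusted p = 0.402), while Ube2g2 had means of 0.03 and -0.04. Leaving out a pair kept the TA call of Ube2g1 in 2 of 4 fits (highest adjusted p = 0.195), and 9 of 10 other ways of processing kept it.

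Other E2 enzymes were called in TA or gastrocnemius alone. Ube2h, which serves a ligase complex of maturing red blood cells, had TA log2 ratios of -0.55, -0.24, -0.13 and -0.21, a mean of -0.28 ± 0.18 (SD, n = 4, limma adjusted p = 0.0792). Every TA pair lay below 0, while in gastrocnemius the pairs ran from -0.15 to 0.17 with a mean of 0.00. The other probe of Ube2h gave 0.06 in TA, and the call ended without any of the pairs (limma adjusted p from 0.101 to 0.283) and was kept in 5 of 10 other ways of processing. In the same TA arrays 4 of 6 tested red blood cell markers fell (Hbb-bs by 1.30 on the log2 scale, and Hba-a1, Hbb-bt and Alas2), and their part in the value of Ube2h was not tested. Ube2a, one of a pair of enzymes that mark histone H2B and act in DNA damage tolerance, rose in TA by 0.26 ± 0.14 (limma adjusted p = 0.0780), beside 0.28 in gastrocnemius (adjusted p = 0.143), with -0.04 in TA by its other probe, and its twin Ube2b had means of -0.01 and -0.03. Ube2d2a, of the group that starts chains for many ligases, rose in TA by 0.21 ± 0.073 (limma adjusted p = 0.0964), with 0.04 and -0.04 by its other probes, and its relatives Ube2d1 (-0.36 in gastrocnemius, 0.03 in TA) and Ube2d3 (-0.01 and 0.11) were not called. Leaving out a pair ended the call of Ube2d2a in all 4 fits (adjusted p from 0.182 to 0.227) and that of Ube2a without pair 1, 2 or 4 (highest 0.280), and 5 and 6 of 10 other ways of processing kept them. Ube2q1, named with Ube2q2 after their values were seen, rose in gastrocnemius by 0.27 ± 0.087 (limma adjusted p = 0.0713) beside 0.20 in TA (adjusted p = 0.102), and Ube2q2 had means of 0.21 and 0.17, not called.

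The enzymes of K63-linked chains, Ube2n and its inactive partners Ube2v1 and Ube2v2, were not called by their brightest probes. For Ube2v1 and Ube2n, dimmer probes were called as lower. The brightest probe of Ube2v1 had log2 ratios of 0.07, 0.20, 0.45 and 0.15 in gastrocnemius and 0.09, 0.19, 0.19 and 0.21 in TA. A dimmer probe of the same gene had -0.10, -0.63, -0.32 and -0.54 in gastrocnemius and -0.69, -0.43, -0.48 and -0.19 in TA. The probes did not overlap in any pair. The brightest gave means of 0.22 and 0.17 (limma adjusted p = 0.16 and 0.15), the dimmer probe -0.40 and -0.45 (0.0663 and 0.0334), and another dimmer probe -0.43 and -0.40 (0.0901 and 0.0637). Ube2n likewise had 0.15 in gastrocnemius by its brightest probe and -0.34 (adjusted p = 0.0614) by another. Which transcripts each probe reads was not examined. Ube2v2 had means of 0.17 and 0.08, Ube2e1 of 0.10 and 0.18, Ube2l3, which works with parkin, of 0.13 and 0.06, Ube2l6, the E2 for ISG15, of -0.20 and -0.20, and the anaphase-promoting complex enzymes Ube2c (-0.38 and -0.08) and Ube2s (-0.23 and -0.13) were negative, none of them called by the brightest probe. In TA both other probes of Ube2e1 were called as higher (0.21 and 0.28, limma adjusted p = 0.0995 and 0.0620), and so was a probe of Ube2l3 (0.22, adjusted p = 0.0991). Among the members just listed, Ube2l6, Ube2c and Ube2s were named after their values were seen.

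In all, 10 members had a call and a probe that pointed the other way, among 34 members with more than 1 tested probe in each muscle. The plot of probes gives values by pair. Of 6 further probes of members called in gastrocnemius, 5 had the same sign and 0 were called by limma, and of 14 in TA, 7 had the same sign, of which those of Fbxo44 and Fbxw11 were called. A TA probe of Ube2j2 was called in the opposite direction.

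The F-box proteins with leucine-rich repeats gave 3 calls in gastrocnemius, all higher. Beside Fbxl20, Fbxl12 had log2 ratios of 0.41, 0.15, 0.36 and 0.48 in gastrocnemius and 0.24, 0.24, 0.26 and -0.26 in TA. In gastrocnemius all pairs lay above 0, and in TA pair 4 alone lay below it. Fbxl12 rose in gastrocnemius by 0.35 ± 0.14 (SD, n = 4, limma adjusted p = 0.0542) and had a mean of 0.12 ± 0.26 in TA (adjusted p = 0.465). Its gastrocnemius call was kept in all of 10 other ways of processing and in 2 of 4 fits with a pair left out (adjusted p = 0.179 without pair 3 and 0.203 without pair 4), and was lost with the unpaired test on the separate channels (0.183) and kept with SAM at 0.05. Fbxl16 had 0.05, 0.30, 0.33 and 0.51 in gastrocnemius, with pair 1 near 0, and rose by 0.30 ± 0.19 (limma adjusted p = 0.0968), beside 0.32 ± 0.41 in TA, where pair 1 alone was at 0.91 and no call was made (adjusted p = 0.175). Its gastrocnemius call was kept only without pair 1 (adjusted p = 0.0656, and from 0.169 to 0.307 without pair 2, 3 or 4) and in 6 of 10 other ways of processing. Fbxl4, a mitochondrial protein that restrains mitophagy, had -0.23, -0.18, -0.03 and -0.11 in gastrocnemius and 0.27, 0.20, 0.10 and 0.32 in TA. The muscles did not overlap, though limma did not call the difference between them. Fbxl4 rose in TA by 0.22 ± 0.094 (SD, n = 4, limma adjusted p = 0.0912) and had a mean of -0.14 ± 0.087 in gastrocnemius (adjusted p = 0.274). The TA call ended without any of the pairs (adjusted p from 0.118 to 0.284) and was kept in 7 of 10 other ways of processing. The other probe of Fbxl4 gave 0.05 in gastrocnemius and 0.15 in TA, neither called, so the opposite signs rest on the brightest probe. The iron sensor Fbxl5 had means of -0.14 and -0.10 and was not called.

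The F-box proteins with WD40 repeats gave 4 calls in TA. Beside Fbxw9 and Fbxw11, Fbxw8, the receptor that works with Cul7, had log2 ratios of -0.56, -0.38, -0.17 and -0.12 in TA, all below 0. It fell there by a mean of -0.31 ± 0.20 (SD, n = 4, limma adjusted p = 0.0709), while a dimmer probe gave 0.00 in TA, and in gastrocnemius the mean was -0.29 ± 0.29 (adjusted p = 0.169) with pair 1 at 0.12. The TA call ended without pair 1 (adjusted p = 0.271) or pair 2 (0.188), and was kept in 6 of 10 other ways of processing. The fourth was Fbxw17, named after its values were seen, which rose in TA by 0.25 ± 0.10 (limma adjusted p = 0.0696). Fbxw7, the receptor for cyclin E and Myc, had means of 0.14 and -0.14, and Fbxw5 of 0.01 and -0.08, neither called.

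Among the other F-box proteins, Fbxo6, Fbxo17 and Fbxo44 belong to a family known for binding sugar chains of glycoproteins. Its remaining members, named after their values were seen, were not called: Fbxo2 had means of 0.05 and 0.06, and Fbxo27 had 0.03 in gastrocnemius and was not tested in TA. Fbxo17 had log2 ratios of -0.08, 0.54, 0.35 and 0.24 in gastrocnemius and 0.60, 0.39, 0.40 and 0.31 in TA. It was above 0 in every pair but pair 1 of gastrocnemius by its brightest probe. It rose in TA by 0.43 ± 0.12 (SD, n = 4, limma adjusted p = 0.0244), the highest mean of any member in either muscle by brightest probes, and had a mean of 0.26 ± 0.26 in gastrocnemius (adjusted p = 0.174). Its other probe had a mean of -0.07 in gastrocnemius (limma adjusted p = 0.605). The TA call was kept in all of 10 other ways of processing and in 3 of 4 fits with a pair left out, and ended without pair 1 (adjusted p = 0.137) and with the unpaired test on the separate channels (0.175), though not with SAM at 0.05. Fbxo6 had 0.28, 0.13, 0.37 and 0.35 in gastrocnemius, all above 0, and rose there by 0.28 ± 0.11 (limma adjusted p = 0.0717), beside 0.19 in TA (adjusted p = 0.140). Fbxo44, of the same family by sequence, had -0.72, -0.05, -0.37 and -0.21 in TA and 0.40, -0.35, 0.13 and -0.03 in gastrocnemius. It fell in TA by a mean of -0.34 ± 0.28 (SD, n = 4, limma adjusted p = 0.0902), with -0.36 by its other probe (adjusted p = 0.0390), and its gastrocnemius pairs lay on both sides of 0. Leaving out a pair ended the call of Fbxo44, kept in 5 of 10 other ways of processing (highest adjusted p = 0.142), in all 4 fits (adjusted p from 0.105 to 0.310) and that of Fbxo6, kept in 8 of 10, without pair 1, 3 or 4 (highest 0.242).

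Fbxo36 had TA log2 ratios of -0.21, -0.24, -0.30 and -0.21 and fell by a mean of -0.24 ± 0.042 (SD, n = 4, limma adjusted p = 0.0680), beside -0.06 in gastrocnemius (adjusted p = 0.599). Its call was kept without pair 4 (adjusted p = 0.0989) and ended without pair 1, 2 or 3 (highest 0.216). All of 10 other ways of processing kept it, with means from -0.49 to -0.21, and the unpaired test on the separate channels ended it (0.133). That test also ended the calls of Fbxw11 in gastrocnemius (0.131) and TA (0.103) and of Fbxl16 in gastrocnemius (0.368). In TA it further ended those of Ube2h (0.227), Ube2g1 (0.221), Fbxo44 (0.207), Ube2j2 (0.120), Fbxw8 (0.109) and Fbxl4. The remaining Fbxo calls in TA, named after their values were seen, were Fbxo38 at 0.23 ± 0.025 and Fbxo42 at 0.26 ± 0.10 (limma adjusted p = 0.0717 and 0.0686). Of the members tied to muscle, Fbxo40, a muscle-restricted receptor for the insulin receptor substrate IRS1, had means of -0.24 and -0.13, and Fbxo21, needed for muscle wasting in mice, of -0.06 and 0.09, neither called. Fbxo31 had -0.08 and -0.14 by its brightest probe and 0.43 (adjusted p = 0.0567) and 0.28 (0.115) by another. Fbxo45, which acts at synapses, had means of 0.06 and 0.03.

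The partners of these enzymes were read from lists of genes set by function. Of 16 tested genes for ubiquitin, its relatives and their activation, 1 rose and 1 fell in each muscle, 12.5% of those tested, beside 15.4% of all genes in gastrocnemius and 16.3% in TA. Uba2, part of the SUMO-activating enzyme, rose in both, at 0.56 ± 0.12 (SD, n = 4, limma adjusted p = 0.0287) in gastrocnemius and 0.38 ± 0.11 (n = 4, adjusted p = 0.0303) in TA, and its partner Sae1 fell in TA, at -0.32 ± 0.15 (limma adjusted p = 0.0515). The ubiquitin gene Ubb fell in gastrocnemius, at -0.31 ± 0.20 (limma adjusted p = 0.0930). Of 14 partners of cullin complexes, the substrate receptors Keap1 (-0.30) and Spop (-0.27), both of Cul3, fell in gastrocnemius, and Vhl (0.36), a receptor of Cul2, rose in TA, 14.3% and 7.14% of those tested.

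Of 17 tested regulators of NEDD8 on cullins, 3 rose in gastrocnemius and 2 in TA, and none fell by limma. These were 17.6% and 11.8% of those tested, near the 15.4% and 16.3% of all genes. Dcun1d1, which helps the E2 place NEDD8 on cullins, rose in both muscles, with log2 ratios of 0.11, 0.34, 0.48 and 0.51 in gastrocnemius and 0.39, 0.39, 0.30 and 0.55 in TA. All pairs lay above 0, the opposite side to Ube2m. The means were 0.36 ± 0.18 (SD, n = 4, limma adjusted p = 0.0621) and 0.41 ± 0.11 (n = 4, adjusted p = 0.0251). Gps1, a subunit of the COP9 signalosome that takes NEDD8 off, rose too, at 0.36 (limma adjusted p = 0.0564) and 0.25 (0.0827), and Dcun1d4 rose in gastrocnemius, at 0.29 (0.0809). Of 14 tested family members under other symbols, 3 rose in each muscle, 21.4% of those tested, and none fell by limma. Btrc, the close relative of Fbxw11, had log2 ratios of 0.27, 0.58, 0.71 and 0.54 in gastrocnemius and 0.46, 0.46, 0.30 and 0.52 in TA. All pairs lay above 0, as for Fbxw11, with means of 0.53 ± 0.19 (SD, n = 4, limma adjusted p = 0.0345) and 0.44 ± 0.095 (n = 4, adjusted p = 0.0204). Kdm2b, an F-box protein bound to chromatin, rose in both (0.40 and 0.38), the autophagy E2 Atg10 in gastrocnemius (0.43) and Cdc34, the E2 of Cul1 complexes, in TA (0.34). Skp2 and Cdc34b had no probe matched by accession.

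Markers of the tissue moved between the mice as well. All 10 skeletal muscle markers were tested in both muscles, and their summed log2 ratio lay between -0.17 and 0.23 on the 8 arrays. Of these, Myh1 rose and Des and Ckm fell in gastrocnemius, and Myh4 rose and Mb, Des and Mylpf fell in TA. Slow-fibre markers summed to 3.15, -1.37, 0.11 and -0.23 in the gastrocnemius pairs, with 0 of 6 called, and to 0.00, -0.49, -0.08 and -1.44 in TA, where 3 of 6 fell (Tnnt1, Tnni1 and Tnnc1). The pairs of gastrocnemius thus lay far apart in slow-fibre RNA. Fat cell markers fell in gastrocnemius (2 of 5, Cfd and Adipoq; sums of -0.49, -0.02, -1.0 and -1.65) and rose in TA (3 of 5, Retn, Cidec and Plin1; sums of 0.46, -0.53, 1.78 and 0.26). Red blood cell markers summed to 0.38, -0.16, -0.36 and -0.05 in gastrocnemius, with 0 of 5 called, and to -0.21, -1.02, -0.46 and -0.02 in TA. Connective tissue markers stood apart in pair 3, at -1.36 in gastrocnemius and 2.13 in TA, with 0 of 6 called in either muscle. By unadjusted p under 0.05 limma gave 0 slow-fibre, 3 red blood cell and 1 connective tissue markers in gastrocnemius and 0 connective tissue markers in TA. Leukocyte markers fell in 1 of 7 in gastrocnemius (Cd74) and in 1 of 9 in TA (S100a9), myelinated nerve markers in 2 of 5 in TA and endothelial markers in 1 of 5 in TA (Pecam1). In gastrocnemius limma called 0 of 5 nerve and 0 of 5 endothelial markers (0 and 1 at an unadjusted p under 0.05). The sums ran from -1.22 to 0.15 for leukocytes, from -0.51 to 0.20 for nerve and from -0.26 to 0.04 for endothelium over the 8 arrays. The part of these markers in the values of the members was not tested.

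The test of the difference between the muscles, in which a like dye effect cancels, asked whether a member's ratio differed between gastrocnemius and TA. No member was called: limma gave 0 of 90, beside 0% of the 12206 genes tested, and no other tool was run on that difference. At an unadjusted p under 0.05 there were 5 members, beside 8.17% of all genes. They were Fbxl4 (-0.36, standard error 0.0928), Ube2o (0.28, 0.0946), Fbxl14 (-0.27, 0.0950), Fbxw7 (0.29, 0.113) and Ube2h (0.28, 0.116), as gastrocnemius minus TA, each with a limma adjusted p of 0.636. Ube2o was named after its values were seen. In Fbxl4, Ube2o and Fbxl14 the 4 gastrocnemius and 4 TA pairs did not overlap, and in Fbxw7 and Ube2h they did. These members were picked by their p, and the share of all genes without overlap was not counted. The lack of overlap is therefore not read as a difference between the muscles. For Ube2m the difference was -0.13 with a standard error of 0.155 (adjusted p = 0.851). Members called in a single muscle were therefore not shown to differ between muscles.

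Levels were then compared between the muscles within each genotype, and so within a dye. In WT mice 9 of 90 members were called, beside 21.1% of the 12206 genes tested, with 4 higher in gastrocnemius (beside 7.91%) and 5 lower (beside 13.2%). In Eif6+/- mice 12 of 90 were called, beside 16.9%, with 4 higher (beside 6.68%) and 8 lower (beside 10.2%). The WT count fell to 5 without TA pair 2 (beside 1680 genes). The Eif6+/- count fell to 5 without gastrocnemius pair 1 or TA pair 1 (beside 1048 and 953 genes). It fell to 6 without gastrocnemius pair 4 (1171 genes) and to 7 without gastrocnemius pair 2 or TA pair 2 (1174 and 1053 genes). A total of 4 members were called in both genotypes and in the same direction, beside 8.86% of all genes (44.4% of those called in WT and 33.3% of those in Eif6+/-, against 41.9% and 52.5% over all genes). These were Fbxo40 and Fbxo21, higher in gastrocnemius, and Ube2a and Fbxl12, lower. The scaling between arrays moved these splits. With Agilent's processed signals, which shifted the median of all genes from -0.03 to 0.20 in WT and to 0.21 in Eif6+/-, 8 members were higher and 0 lower in WT and 11 and 0 in Eif6+/-. Over all genes 1770 were called in WT and 2315 in Eif6+/-. With each array's upper quartile subtracted the medians were -0.13 in both, and 2 members were higher and 15 lower in WT and 3 and 29 in Eif6+/-. Of all 12206 genes 3227 were then called in WT and 4214 in Eif6+/-. With loess within arrays alone limma called 3 members in WT (2 higher, 1 lower) and 2 in Eif6+/- (1 and 1), beside 1520 and 766 genes. The median of all genes was not subtracted, so each difference depends on the scaling used and is to be read beside that median.

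Fbxo40 had normalized log2 levels of 8.42, 8.83, 8.47 and 8.77 in WT gastrocnemius and 8.31, 7.93, 7.98 and 7.96 in WT TA. In Eif6+/- mice the levels were 8.31, 8.35, 8.43 and 8.44 in gastrocnemius and 7.94, 7.85, 7.87 and 8.02 in TA. Every gastrocnemius sample lay above every TA sample in both genotypes. The difference was 0.57 with a standard error of 0.122 in WT (limma adjusted p = 0.0187) and 0.46 with a standard error of 0.0643 in Eif6+/- (adjusted p = 0.00535). It was called in all of 11 other ways of processing in each genotype, from 0.57 to 1.05 in WT and from 0.45 to 0.90 in Eif6+/-, and in all of 8 fits with an array left out. Ube2a had levels of 10.34, 9.91, 10.04 and 10.11 in WT gastrocnemius and 10.42, 10.53, 10.57 and 10.49 in WT TA, again without overlap. It differed by -0.40 in WT (standard error 0.0975, limma adjusted p = 0.0307) and by -0.38 in Eif6+/- (0.0753, adjusted p = 0.0202), and was called in 10 of 11 other ways of processing in each, though not with Agilent's processed signals (adjusted p = 0.434 and 0.457). With those signals the median of all genes was 0.20 in WT and 0.21 in Eif6+/-.

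Fbxl22, an F-box protein of the sarcomere, was called in WT alone, at 0.47 (standard error 0.0977, limma adjusted p = 0.0176), beside 0.27 in Eif6+/- (adjusted p = 0.121). Its WT levels were 8.40, 7.97, 8.16 and 8.23 in gastrocnemius and 7.71, 7.68, 7.66 and 7.82 in TA, without overlap, and all of 11 other ways of processing kept the call. Fbxl12 differed by -0.54 in WT (limma adjusted p = 0.0181) and by -0.31 in Eif6+/- (adjusted p = 0.0911), and the latter was kept in 1 of 8 fits with an array left out (highest adjusted p = 0.178). The 2 calls of Fbxl12 were kept in 9 and 6 of 11 other ways of processing. Fbxo21 differed by 0.34 and 0.18 (limma adjusted p = 0.0940 and 0.0867), each kept in 2 of 8 such fits, and in 6 and 5 of 11 other ways of processing. The other named members called in WT were Fbxl4 (0.26), Fbxo44 (-0.42) and Ube2v1 (-0.25), and in Eif6+/- Ube2g2 (0.29), Fbxw8 (0.24), Ube2z (-0.35), Fbxl14 (-0.34) and Ube2e3 (-0.23). With an array left out, the WT calls were kept in 3 of 8 fits for Fbxl4 (highest limma adjusted p = 0.167), 3 for Fbxo44 (0.163) and 6 for Ube2v1 (0.116). These calls were kept in 6, 7 and 6 of 11 other ways of processing, and for Ube2v1 the mean of all probes gave -0.05 (adjusted p = 0.823). The Eif6+/- calls were kept in all 8 for Ube2g2 and Fbxl14, in 5 for Ube2z (highest limma adjusted p = 0.122) and Ube2e3 (0.153), and in 4 for Fbxw8 (0.134). Of 11 other ways of processing, 8 kept the call of Ube2e3 and 9 each of the others. Agilent's processed signals moved Fbxl14 to -0.12 (adjusted p = 0.649), Ube2z to -0.12 (0.672) and Ube2e3 to 0.01 (0.977), and the subtracted upper quartile moved Ube2g2 to 0.09 (0.430). These scalings also moved the median of all genes in Eif6+/-, from -0.03 to 0.21 and to -0.13. The moves are therefore not read as changes of these members alone. Loess alone ended all 5 (0.106 to 0.260). Of the lists of markers, 5 of 6 slow-fibre, 5 of 5 fat cell, 4 of 6 connective tissue and 1 of 5 myelinated nerve markers were higher in WT gastrocnemius. In Eif6+/- gastrocnemius 6 of 6 slow-fibre, 4 of 5 fat cell, 1 of 6 connective tissue and 4 of 5 myelinated nerve markers were higher. Their median differences were 2.11 and 2.23 for slow fibre and 2.38 and 1.57 for fat cells, and their part in the members' differences was not tested.

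**Figure D3:**
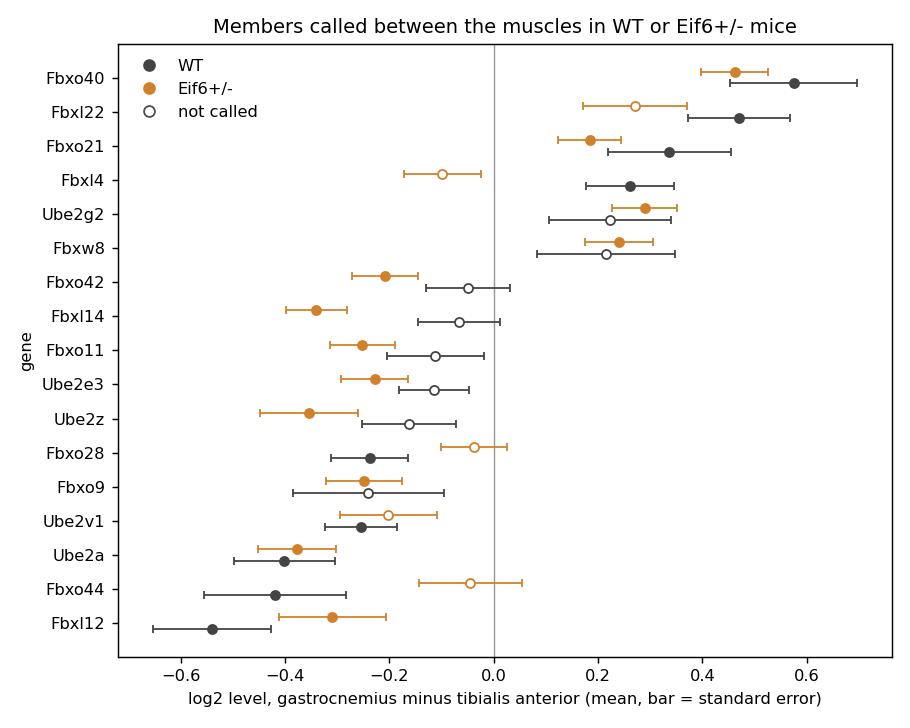
Difference in normalized log2 level, gastrocnemius minus TA (horizontal axis), for the members called between the muscles in WT (grey) or Eif6+/- mice (orange), as the mean over 4 arrays per muscle with its standard error, open circles where the member was not called. Fbxo40 lies highest and Fbxl12 lowest in WT.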

How the data were processed

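RNA of gastrocnemius and of TA was hybridized to 8 two-colour arrays. The authors deposited the scanner's spot intensity values, made with Feature Extraction 10.5.1.1 and not normalized, and a table of deposited log2 values whose scale (log2 ratio), centring and direction (Cy5 over Cy3) are known: each column matched loess-normalized ratios of uncorrected intensities (r from 0.999963 to 0.999996). Its column medians, in order of the pairs, were 0.00257, 0.000831, -0.00441 and 0.00375 in gastrocnemius, and TA had 0.00138, -0.000366, 0.00288 and 0.00212. Median intensities (mean intensities were not used here) lay from 46 to 74 per array and channel, and from 38.7% to 48.6% of probes were well above background.

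Intensities were corrected with normexp (offset 50) and normalized by loess within arrays (control spots at weight 0), then by quantiles across the 16 channels. Control and outlier spots were left out and the spots of a probe averaged. Probes well above background in either channel on all 4 arrays of a muscle were kept. Log2 ratios were tested against 0, and muscles against each other, with limma 3.58.1 (lmFit, eBayes) in R 4.3.3, adjusted by Benjamini-Hochberg over the kept probes with a threshold of 0.1, and tested on simulated data. Plots used Python 3.11.15 and matplotlib 3.10.9. Of 55681 probes, 27235 were named through the RefSeq accession and a gene table of GRCm38.p6. The brightest kept probe stood for a gene.

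Named by rule were the top 6 called members each way per muscle with a like sign in all 4 pairs, those called in both muscles, the top 4 called differences between muscles per genotype, all cullins and a fixed list of well known members. Others are marked as named after their values were seen. The members and lists were chosen with earlier results of these data known. Alternatives were loess or quantiles alone, offset 0, uncorrected intensities, Agilent's processed signals, the deposited ratios, an absent or stricter filter, the mean of all probes, a threshold of 0.05, SAM, an unpaired t-test on the separate channels, 1 fit over both muscles, a replicate block and each array left out. Added after seeing the data were Aquantile normalization and Agilent's signals less each array's upper quartile. The number of arrays limits the precision.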

Additional observations from a re-analysis of the deposited data

Results flagged for a closer look

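In 5 of 100 groups of 4 arrays, each holding the log2 ratios of 1 named member or of Eif6 in 1 muscle, an array lay far from the other 3 (by Dixon's criterion, its gap to the nearest of them over the whole range). Chance gives about 1 in 20 such groups. In gastrocnemius, Ube2v2 was at 0.27 in pair 2 against 0.12 to 0.14 in the others, and Fbxo21 was at -0.32 in pair 4 against -0.00083 to 0.06. In TA, Ube2e3 was at 0.45 in pair 1 against 0.34 to 0.36, Fbxo31 was at 0.17 in pair 4 against -0.27 to -0.21, and Fbxl12 was at -0.26 in pair 4 against 0.24 to 0.26. Of these, only Ube2e3 was called in the muscle concerned, and it was not called there without pair 1 (limma adjusted p = 0.146).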

How the results depend on the processing

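The count of 13 members called in gastrocnemius became 22 with 1 fit over both muscles, 21 with SAM at a false discovery rate of 0.1, 3 with Agilent's processed signals, 3 with normexp offset 0 and 2 at an adjusted p under 0.05, and lay from 0 to 10 with a pair left out. Over all genes the 1942 calls in gastrocnemius became 2975, 3198, 1208, 1452 and 628 under the named settings, in the same order. The count of 21 in TA became 10 with normexp offset 0, 9 with an unpaired t-test on the separate channels, 7 with Agilent's processed signals, 6 with SAM at 0.05 and 5 at an adjusted p under 0.05, and lay from 0 to 13 with a pair left out. Over all genes the 2014 calls in TA became 1216, 878, 850, 990 and 837 in that order. The other settings kept each count of members within 1.5 times. The difference between muscles gave 0 members by limma under every setting run (from 3 to 12 at an unadjusted p under 0.05). Between muscles, the count of 9 in WT became 17 with Agilent's signals less the upper quartile, 5 at an adjusted p under 0.05 and 3 with loess alone, and lay from 5 to 9 with an array left out. That of 12 in Eif6+/- became 32, 6 and 2 under the same settings and lay from 5 to 17. Over all genes the 2579 calls in WT became 3227, 1528 and 1520, and the 2058 in Eif6+/- became 4214, 1045 and 766. The cause of these changes was not tested, beyond fewer arrays and a stricter threshold.

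The labels number the pairs alike in both muscles. Deviations of same-numbered arrays had correlations from -0.356 to 0.0896 for the ratios and from -0.376 to 0.192 for WT. For Eif6+/- all of these were above 0, from 0.0153 to 0.187. Differently numbered arrays ran from -0.311 to 0.299 for the ratios, -0.333 to 0.402 for WT and -0.155 to 0.227 for Eif6+/-. The same-numbered arrays of Eif6+/- thus lay within the range of the differently numbered ones. With the replicate block, the paired fit called 5 members in WT, 12 in Eif6+/- and 0 for the difference (3 at an unadjusted p under 0.05). Over all genes it called 1859, 2250 and 0 in that order.

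No called value of a named member changed sign in gastrocnemius (192 refits, 118 still called) or TA (272, of which 171) unless another probe was read. By another probe the value became -0.22 in gastrocnemius and -0.26 in TA for Ube2j2, 0.0030 for Fbxw8, -0.045 for Ube2a, -0.036 for Ube2d2a and 0.063 for Ube2h in TA. Members uncalled by their brightest probe were called the other way by another: Fbxo31 (0.43), Ube2n (-0.34) and Ube2v1 (-0.40 and -0.43) in gastrocnemius, and Ube2v1 (-0.45 and -0.40) in TA. Between muscles in Eif6+/-, Ube2e3 went from -0.23 to 0.0086 with Agilent's processed signals, which moved the median of all genes from -0.03 to 0.21. That change of sign came with a shift of all genes and is not read as a change of Ube2e3 itself. Fbxw5 went from 0.02, not called, to -0.21 with the upper quartile subtracted, where the median of all genes was -0.13. Beyond these shifts the cause was not tested. Signal over background limited what was tested: 24 of 116 members were too dim in both muscles.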
